A study of Mus musculus with 768 samples.

Results

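Vascular CAF-like cells that expressed *Fap* were compared with those in which no *Fap* read was found, within each of 2 plates. The series holds 768 wells of single mesenchymal cells from mammary tumors of the strain FVB/N-Tg(MMTVPyVT)634Mul/J, in which the polyoma middle T antigen is driven by the mouse mammary tumor virus promoter. Cells of 14-week-old mice had been sorted alive as EpCAM-, CD45-, CD31- and NG2- and sequenced by Smart-seq2, with 1 cell sorted into each well. Each plate holds the cells of 1 tumor of 1 mouse, so that n = 2 plates and the plate and the tumor cannot be told apart. All cells carried the same transgene and had no treatment, and the 2 groups were defined by the number of *Fap* reads in their wells. A total of 717 wells had at least 10000 endogenous reads and 1000 genes. A well was called vCAF-like where the mean log2(RPKM + 1) of *Rgs5*, *Higd1b*, *Kcnj8*, *Rgs4*, *Abcc9* and *Gja4* (V) reached 4 and exceeded that of *Dcn*, *Lum*, *Mfap5*, *Olfml3*, *Smoc2* and *Serpinf1* (M). This rule kept 496 wells, 261 in plate 1 and 235 in plate 2. Of these, 303 held 5 or more *Fap* reads (Fap-positive), 155 held none (Fap-negative) and 38 held 1 to 4 reads and entered neither group. Matrix CAF-like (mCAF-like) wells, where M reached 4 and exceeded V, numbered 186 and were split in the same way for comparison.

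Fap, fibroblast activation protein, is a serine protease of the cell surface that belongs to the dipeptidyl peptidase 4 family and cleaves after proline, and its substrates include fragments of denatured collagen. It is low in most healthy adult tissues and is widely used as a marker and target of cancer-associated fibroblasts. The genes of the V score belong to pericytes and vascular smooth muscle cells, the mural cells that wrap small vessels. *Rgs5* and *Rgs4* dampen G protein signaling, *Kcnj8* and *Abcc9* encode the 2 subunits of a vascular potassium channel gated by ATP, and *Gja4* encodes a gap junction protein. The genes of the M score encode secreted matrix proteins and modulators. The *Fap* gene lies on chromosome 2 at 62500936 to 62575509 (GRCm38, RefSeq).

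*Fap* split the vCAF-like wells into a group with no read and a group with many. Fap-positive wells made up 64.0% of the vCAF-like wells of plate 1 (167 of 261, exact 95% binomial interval 57.8 to 69.8%) and 57.9% of those of plate 2 (136 of 235, 51.3 to 64.3%). Fap-negative wells made up 30.3% (79 wells, 24.8 to 36.2%) and 32.3% (76 wells, 26.4 to 38.7%). The Fap-positive wells of plate 1 held 5 to 355 *Fap* reads with a median of 76, and those of plate 2 held 5 to 1031 with a median of 53. The median *Fap* level of these wells was 330.3 counts per 1000000 endogenous reads (CPM) in plate 1 and 335 CPM in plate 2. Few wells lay close to the border, since 4 reads were found in 2 wells of plate 1 and 4 wells of plate 2, and exactly 5 reads in 2 wells and 1 well. The wells with 4 reads reached 5.20 to 18.5 RPKM in plate 1 and 4.85 to 111 RPKM in plate 2, the wells with 5 reads 6.90 and 9.80 RPKM in plate 1 and 38.3 RPKM in plate 2. *Fap* chose these groups, so its levels are a description and carry no test.

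The share of Fap-positive wells went up with the depth of the wells. The wells of each plate were ranked by depth and cut into 4 parts of like size. In plate 1, 47.0% of the part with the fewest reads and 80.0% of the part with the most were Fap-positive, and in plate 2 the shares were 47.5% and 64.4%. Among the deepest part, 11 of 65 wells in plate 1 and 18 of 59 in plate 2 still held no *Fap* read. A count of 0 allows up to 3 reads, which came to a median limit of 18.5 CPM in the Fap-negative wells of plate 1 and of 18.1 CPM in those of plate 2, with highest limits of 122 and 128 CPM. All 79 and 76 of these limits lay below the first quartile of the Fap-positive wells, at 200.2 CPM in plate 1 and 177 CPM in plate 2. These limits and intervals cover counting error only and do not cover RNA lost before sequencing. When each cell was thinned to 50000 reads, which left out 7 and 11 vCAF-like wells with fewer, 58.7% of 254 wells and 52.7% of 224 wells held 5 or more *Fap* reads. In mCAF-like wells, 76.0% (73 of 96) and 68.9% (62 of 90) were Fap-positive, and in the 14 and 21 wells of neither class, 2 wells and 1 well were.

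**Figure D1:**
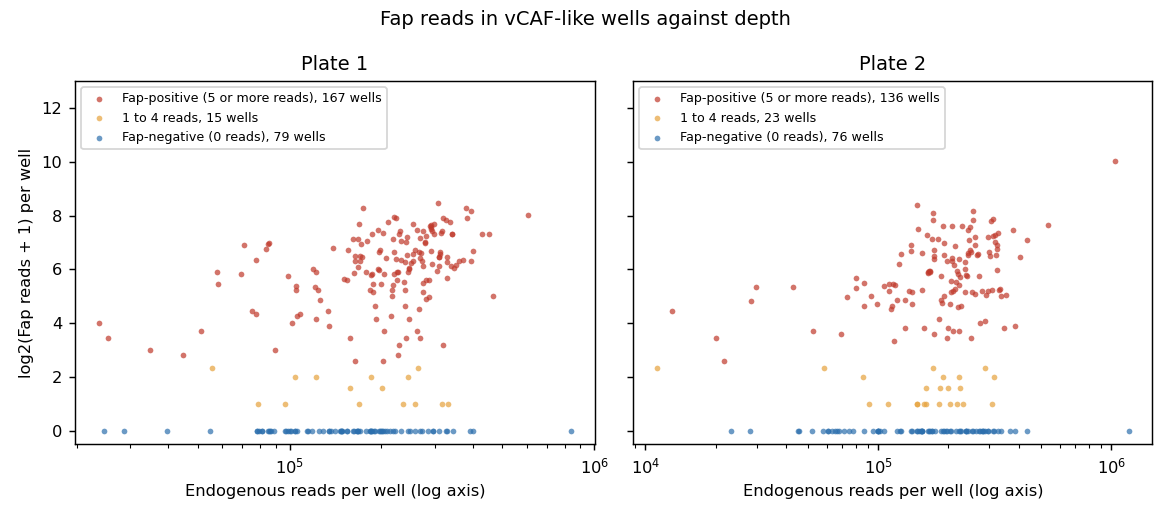
*Fap* reads of each vCAF-like well, as log2(reads + 1), against the endogenous reads of the well on a log axis, 1 panel for each plate and 1 point for each well. The 79 and 76 Fap-negative wells lie along the whole range of depth, and wells with 1 to 4 reads are few (15 and 23).

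The 2 groups also differed in depth and in the M score, and these values stand beside all results given here. Fap-positive wells held a median of 227297 reads and 4200 genes in plate 1, against 162379 reads and 3727 genes in Fap-negative wells. In plate 2 the medians were 207170 reads and 4457 genes against 165859 reads and 3918.5 genes. The median share of ERCC spike-in reads was 12.9% against 16.05% in plate 1 and 11.8% against 14.3% in plate 2. Wells with an M score of at least 2 made up 29.3% of the Fap-positive and 12.7% of the Fap-negative wells in plate 1, and 25.7% and 9.21% in plate 2. Cycling wells, with a mean log2(RPKM + 1) of at least 3 over 18 mitosis genes, numbered 17 of 167 against 3 of 79 in plate 1 and 8 of 136 against 4 of 76 in plate 2. The summed reads of the 4 libraries ran from 14022349 to 37818053. Comparisons were therefore repeated in cells matched on depth, with 72 pairs in plate 1 and 69 pairs in plate 2, and without the cells with an M score of at least 2. The part of depth and of the M score in the differences was not tested otherwise, nor was it tested whether wells with a raised M score held RNA of more than 1 cell.

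Markers of other cell types ranged from no read to reads in most wells. *Pecam1* and *Cdh5*, which define endothelial cells, had no read in any of the 4 libraries, where a count of 0 allows up to 1.80 to 3.95% of the wells. Of the 10 endothelial markers, 4 to 6 were at 0, and their summed level of 959 to 1074 CPM came mostly from *Esam*, which stood between 663 and 763 CPM. The leukocyte marker *Ptprc* was read in 1 Fap-positive well of plate 2 and in no other well of these groups, and the 10 immune markers summed to 0.998 to 12.96 CPM. The 13 epithelial markers summed to 51.9 CPM in Fap-positive and 45.8 CPM in Fap-negative cells of plate 1 and to 220.1 and 352 CPM in plate 2. Among them *Epcam*, whose protein was gated against, was read in 3 of 167 Fap-positive and 3 of 79 Fap-negative wells of plate 1 and in 13 of 136 and 5 of 76 wells of plate 2, and *Lcn2* in 61.0% and 60.5% of the wells of plate 2. The 15 markers of matrix CAFs outside the rule summed to 1594 CPM in Fap-positive against 1843 CPM in Fap-negative cells of plate 1 and to 929 against 1094 CPM in plate 2, so that the sum of this list was lower in the Fap-positive cells of both plates. The 8 markers of developmental CAFs summed to 24.5 and 71.2 CPM in Fap-positive and 37.9 and 180.3 CPM in Fap-negative cells, and the 6 adipocyte markers, of which 3 or 4 were at 0, to 725 and 614 CPM against 927 and 777 CPM. Among these *Fabp4*, which capillary endothelium expresses too, was read in 125 of 167 Fap-positive and 68 of 79 Fap-negative wells of plate 1 and in 93 of 136 and 57 of 76 wells of plate 2. Mitosis genes summed to 918 CPM in Fap-positive against 338 CPM in Fap-negative cells of plate 1, and to 547 against 1353 CPM in plate 2. The part of these transcripts in the differences between the groups was not tested.

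No gene outside the rule passed an adjusted p of 0.05 between Fap-positive and Fap-negative vCAF-like cells. The reads of each group were summed within each plate and tested with edgeR's quasi-likelihood test with the plate as a block. Of 11183 genes tested, 0 were called in either direction (0%), 310 were higher and 293 lower at an unadjusted p under 0.05 (2.77% and 2.62%), and the smallest adjusted p was 0.316. DESeq2, on the same 4 libraries, called 27 genes higher and 25 lower (0.241% and 0.224%), and 394 and 318 at an unadjusted p under 0.05 (3.52% and 2.84%). limma on the mean log2(RPKM + 1) per library, in which each cell weighs the same, called 160 higher and 10 lower (1.43% and 0.0894%), and in depth-matched cells 3 and 4. With the plate as a block, these tests set the difference between the groups against its spread between 2 plates, each of 1 tumor. All differences below are therefore values, and none was called by edgeR with TMM scaling of all reads. Under other settings of edgeR, *F2r*, *Crispld2* and *Btg2* passed an adjusted p of 0.05 at 50000 reads per cell, *Cdh11* with ERCC totals as library size and *Crispld2* with Fap-positive cells from 20 reads. A gene was higher in the Fap-positive cells of both plates in 26.2% of the genes tested and lower in both in 25.5%.

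Interstitial collagens, a list of fibrillar, fibril-associated, type VI and type VIII chains, were higher in Fap-positive vCAF-like cells. Of 14 such genes 12 passed the filter on low levels, and all 12 were higher in both plates, against 26.2% of all genes. None passed an adjusted p of 0.05, 9 were higher and 0 lower at an unadjusted p under 0.05, against 2.77% and 2.62% of all genes, and DESeq2 called 5 and limma 6 of them. In depth-matched cells limma called 3 genes higher among all genes tested. The median log2 fold change of the 12 collagens was 0.48 (0.61 in plate 1 and 0.34 in plate 2), beside 0.01 over all genes. *Col1a2*, a chain of type I collagen, stood at 1771 and 1735 CPM in the Fap-negative cells of plates 1 and 2 and at 3309 and 2858 CPM in the Fap-positive cells. The Fap-positive libraries were higher than the Fap-negative ones without overlap, by a log2 fold change of 0.81 (SE 0.12, edgeR adjusted p = 0.397, DESeq2 adjusted p = 4.88e-08). *Col1a1*, which encodes the other chain, went from 1237 to 2549 CPM in plate 1 and from 1602 to 2193 CPM in plate 2, a log2 fold change of 0.75 (SE 0.16, edgeR adjusted p = 0.891) that was 0.43 in depth-matched cells.

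The type VI and type VIII chains are counted in this list. *Col6a1*, a chain of the beaded filaments around cells, stood at 1467 and 1431 CPM in Fap-negative and at 2549 and 2101 CPM in Fap-positive cells, and its log2 fold change was 0.68 (SE 0.12, edgeR adjusted p = 0.77). *Col8a1*, a short-chain collagen of vessel walls, stood at 194 and 179 CPM against 344 and 361 CPM, a log2 fold change of 0.92 (SE 0.15, edgeR adjusted p = 0.56), which was 0.46 in depth-matched cells and 0.42 without the cells with an M score of at least 2. *Col3a1* went from 5355 to 7337 CPM in plate 1 and from 4912 to 5621 CPM in plate 2, the smallest fold change among the members at an unadjusted p under 0.05 (0.32 on the log2 scale). In depth-matched cells all 12 collagens remained above 0 with a median of 0.32, and 7 were higher at an unadjusted p under 0.05, a level that 2.38% of all genes reached above and 2.32% below 0 there. Without the cells with an M score of at least 2, 11 of 12 were above 0 with a median of 0.38, and *Col12a1* was at -0.21.

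**Figure D2:**
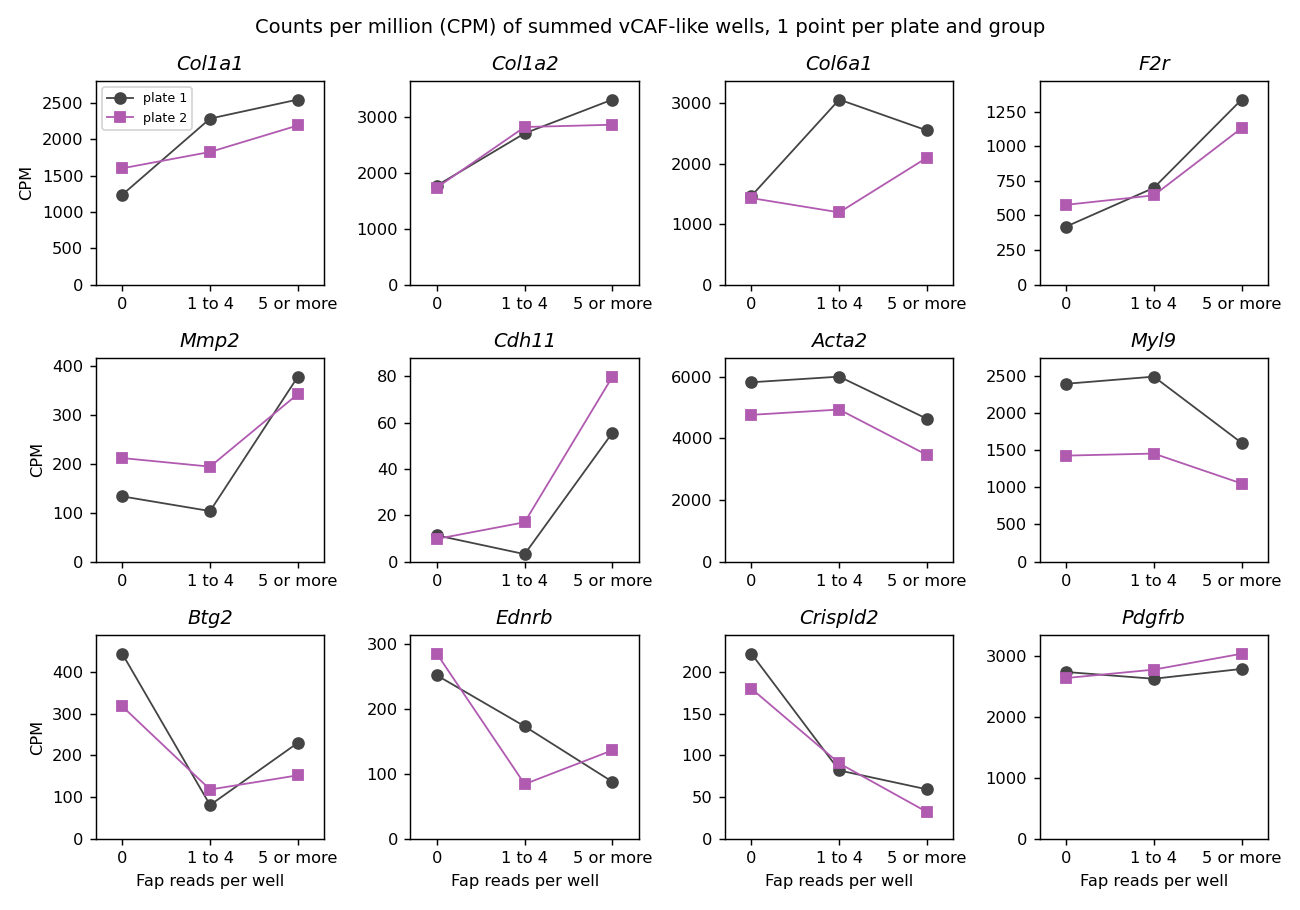
Level of 12 genes in CPM (counts per 1000000 reads, TMM-scaled) in the summed reads of vCAF-like wells with 0, 1 to 4, and 5 or more *Fap* reads, 1 point for each plate and group. *Col1a2* goes from 1771 and 1735 CPM to 3309 and 2858 CPM, *Crispld2* from 222 and 179.8 CPM to 59.2 and 32.0 CPM, and *Pdgfrb* stays between 2632 and 3043 CPM.

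For enzymes that modify and crosslink collagen the result depended on the scale. Of 18 such genes 4 were higher and 4 lower in both plates, against 26.2% and 25.5% of all genes. At an unadjusted p under 0.05, 3 were higher and 0 lower, against 2.77% and 2.62% of all genes. The median was 0.07 with edgeR and 0.51 with limma (0.36 relative to the median of all genes), and 0.27 with limma in depth-matched cells. The members with the smallest p were the lysyl oxidase-like crosslinking enzymes *Loxl1* (0.88, edgeR adjusted p = 0.891) and *Loxl3* (0.52, adjusted p = 0.891). *Loxl1* was at -0.40 without the cells with an M score of at least 2. Among 14 genes of the basement membrane that were tested, of 15, the median was 0.17. It was 0.026 in depth-matched cells and 0.088 without the cells with an M score of at least 2. With limma it was 0.37 (0.23 relative to the median of all genes). At an unadjusted p under 0.05, 1 was higher and 2 were lower, against 2.77% and 2.62% of all genes. The 2 lower members were laminin chains. *Lama5* stood at 60.0 and 45.8 CPM in Fap-negative and at 17.8 and 12.3 CPM in Fap-positive cells (log2 fold change -1.82, SE 0.34, edgeR adjusted p = 0.786), and *Lamb2* differed by -0.50 (adjusted p = 0.891). A single well held 60.1% of the *Lama5* reads of the Fap-negative library of plate 2, and the log2 fold change of *Lama5* was -1.05 at 50000 reads per cell and -0.64 in depth-matched cells thinned to this depth.

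Pericellular proteases and their inhibitors held members in both directions. Of 20 genes 16 were tested, and 4 were higher and 1 lower at an unadjusted p under 0.05, against 2.77% and 2.62% of all genes. The median was 0.18, but 0.033 in depth-matched cells, -0.039 at 50000 reads per cell and 0.36 with limma (0.22 relative to the median of all genes). *Mmp2*, a gelatinase, stood at 134 and 212 CPM in Fap-negative and at 379 and 343 CPM in Fap-positive cells, without overlap (log2 fold change 1.097, SE 0.22, edgeR adjusted p = 0.836), and it differed by 0.61 in depth-matched cells thinned to 50000 reads. *Mmp14*, the membrane-bound protease that activates the *Mmp2* product, went from 721 to 941 CPM in plate 1 and from 738 to 1023 CPM in plate 2, a log2 fold change of 0.43. *Serpine2*, an inhibitor of serine proteases, differed by 0.30 (edgeR adjusted p = 0.891). The remaining member counted as higher, *Mmp19*, stood at 0.79 and 0.34 CPM in Fap-negative and at 6.61 and 5.94 CPM in Fap-positive cells, so that its place above the filter rests on the group where it is high. The urokinase gene *Plau* was lower, at 30.5 and 17.1 CPM in Fap-positive against 41.9 and 58.5 CPM in Fap-negative cells.

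Genes used as signs of activated CAFs held members in both directions. Of 18 genes 16 were tested, 9 were higher and 2 lower in both plates, against 26.2% and 25.5% of all genes, 4 were higher and 1 lower at an unadjusted p under 0.05, against 2.77% and 2.62%, and the median was 0.32, but -0.00 without the cells with an M score of at least 2. *Tnc*, which encodes tenascin-C, stood at 116 and 115 CPM in Fap-negative and at 191 and 179.6 CPM in Fap-positive cells (log2 fold change 0.68, SE 0.17, edgeR adjusted p = 0.891). *Thbs2*, *Spp1* and *Fn1*, encoding thrombospondin-2, osteopontin and fibronectin, differed by 0.72, 0.92 and 0.33. The member that was lower at an unadjusted p under 0.05 was *S100a4*, also named FSP-1 and used as a CAF marker, at 241 and 352 CPM in Fap-negative and at 160.2 and 228 CPM in Fap-positive cells (log2 fold change -0.61, SE 0.15, edgeR adjusted p = 0.891). Its sign depended on the scale, since the limma value was 0.12. *Pdpn* and *Pdgfra*, markers of other CAF subsets, were under the filter on low levels. *Pdpn* was read in 7.78% and 7.35% of Fap-positive and in 5.06% and 1.32% of Fap-negative wells, and *Pdgfra* in 16.8% and 8.09% against 11.4% and 10.5%.

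Among single genes, the 12 with the smallest p above 0 were *Cdh11*, *F2r*, *Col1a2*, *Col8a1*, *Stc1*, *Col6a1*, *Mrc2*, *Ubl4*, *Lats1*, *Mmp2*, *Ptges* and *Rcn1*, with edgeR adjusted p-values from 0.397 to 0.861. *Cdh11*, a cadherin of mesenchymal cells, stood at 11.4 and 9.83 CPM in Fap-negative and at 55.7 and 79.9 CPM in Fap-positive cells. This was the largest of the 12 fold changes with edgeR on all cells (2.66 on the log2 scale, SE 0.37, adjusted p = 0.397). It was not the largest with limma, at 0.63 beside 2.09 for *F2r*. The share of cells with a *Cdh11* read was 43.1% and 39.7% in the Fap-positive and 30.4% and 28.9% in the Fap-negative groups, and 18.4% and 24.6% against 11.8% and 12.5% at 50000 reads per cell. The fold change of *Cdh11* was 1.58 without the cells with an M score of at least 2, where that of *Ptges* was 2.46. A single well held 44.4% of the *Cdh11* reads of the Fap-negative library of plate 2. *F2r*, the thrombin receptor PAR1, stood at 419 and 577 CPM against 1339 and 1132 CPM, a log2 fold change of 1.32 (SE 0.19, adjusted p = 0.397). The groups did not overlap, *F2r* was read in 76.1% and 80.0% of Fap-positive against 53.9% and 61.1% of Fap-negative cells at 50000 reads, and limma gave an adjusted p of 8.34e-11. The fold change of *F2r* was 0.83 without the cells with an M score of at least 2.

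*Mrc2*, a receptor that takes up collagen fragments (Endo180), stood at 36.3 and 45.8 CPM in Fap-negative and at 86.9 and 109 CPM in Fap-positive cells, a log2 fold change of 1.25 (SE 0.24, adjusted p = 0.792). *Stc1*, which encodes the secreted glycoprotein stanniocalcin-1, went from 76.1 to 153 CPM in plate 1 and from 66.0 to 142 CPM in plate 2 (1.06, SE 0.19). *Ptges*, a synthase of prostaglandin E2, went from 11.9 to 37.4 CPM and from 9.29 to 48.8 CPM (2.02, SE 0.41). The Fap-positive library lay above the Fap-negative one in both plates for each of these genes. *Lats1*, a kinase of the Hippo pathway, *Rcn1*, a calcium-binding protein of the endoplasmic reticulum, and *Ubl4*, a ubiquitin-like protein, differed by 1.15, 0.87 and 1.27. In depth-matched cells the 12 genes differed by 0.46 to 2.23, each in the same direction.

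The 12 genes with the smallest p below 0 were *Crispld2*, *Ednrb*, *Btg2*, *Pdlim3*, *Ccl2*, *Cav1*, *Cav2*, *Lama5*, *Map3k7cl*, *Olfr78*, *Mustn1* and *Nrip2*. *Crispld2*, a secreted cysteine-rich protein, stood at 222 and 179.8 CPM in Fap-negative and at 59.2 and 32.0 CPM in Fap-positive cells. It had the smallest p of all genes (log2 fold change -2.19, SE 0.22, edgeR adjusted p = 0.316), but limma gave an adjusted p of 0.279, and 1 well held 56.4% of its reads in the Fap-negative library of plate 1. The share of cells with a *Crispld2* read was 35.3% in Fap-positive against 30.4% in Fap-negative cells of plate 1 and 24.3% against 34.2% in plate 2, so that it did not follow the summed level in plate 1. *Ednrb*, the endothelin receptor B, stood at 252 and 285 CPM against 87.7 and 136 CPM (-1.29, SE 0.18, adjusted p = 0.397). At 50000 reads per cell it was read in 34.2% and 30.6% of Fap-negative and in 15.3% and 23.8% of Fap-positive cells, and its value was -0.72 without the cells with an M score of at least 2. *Pdlim3*, which binds alpha-actinin in muscle, stood at 69.3 and 104 CPM against 21.5 and 21.9 CPM (-1.97, SE 0.30, adjusted p = 0.475).

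*Cav1* and *Cav2*, neighbouring genes on chromosome 6 that encode the coat proteins of caveolae, were both lower. *Cav1* stood at 904 and 372 CPM in Fap-negative and at 530.0 and 212 CPM in Fap-positive cells (-0.79, SE 0.13, adjusted p = 0.56), and *Cav2* at 319 and 179 CPM against 181 and 93.6 CPM (-0.88, SE 0.16). With 1 library left out, which leaves no block, *Cav1* ran from -1.59 (without the Fap-positive library of plate 1) to -0.0054 (without the Fap-negative library of plate 1) and *Cav2* from -1.41 to -0.38, while with 1 plate left out *Cav1* was at -0.81 and -0.77. The plates overlapped for *Cav1*, since the Fap-positive cells of plate 1 lay above the Fap-negative cells of plate 2, while within each plate the Fap-positive cells were lower. The share of cells with a *Cav1* read was 73.1% in Fap-positive against 60.8% in Fap-negative cells of plate 1 and 42.6% against 47.4% in plate 2. *Olfr78*, an odorant receptor, stood at 269 and 167 CPM against 87.5 and 94.9 CPM (-1.22, SE 0.24). *Mustn1*, *Nrip2* and *Map3k7cl* differed by -0.77 (-0.45 without the cells with an M score of at least 2), -0.998 and -0.90. With 1 library left out, *Mustn1* ran from -1.03 to -0.50, *Nrip2* from -1.89 to -0.15 and *Map3k7cl* from -1.42 to -0.43. The chemokine gene *Ccl2* went from 209 to 103 CPM in plate 1 and from 207 to 87.2 CPM in plate 2 (-1.13, SE 0.17), but single wells held 27.0 to 47.3% of its reads in each library. Its value was 0.97 without the cells with an M score of at least 2 and 0.12 with limma, so that its direction was not the same under all settings. In depth-matched cells the 12 genes differed by -2.30 to -0.67.

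Smooth muscle contractile genes were lower in Fap-positive cells. All 15 tested members had a log2 fold change below 0 and 13 were lower in both plates, against 25.5% of all genes. None passed an adjusted p of 0.05, 8 were lower and 0 higher at an unadjusted p under 0.05, against 2.62% and 2.77% of all genes, and DESeq2 called 1 of them. Without the cells with an M score of at least 2, 14 of 15 were below 0. At an unadjusted p under 0.05, 4 were then lower and 0 higher, beside 269 lower and 269 higher of 11133 genes. The median was -0.36 with TMM scaling, -0.54 in depth-matched cells and -0.29 without the cells with an M score of at least 2. It was -0.13 with ERCC totals and -0.03 with limma, settings that moved the median of all genes to 0.24 and 0.14, and -0.37 and -0.17 relative to that median. *Acta2*, which encodes alpha smooth muscle actin, stood at 5814 and 4759 CPM in Fap-negative and at 4629 and 3457 CPM in Fap-positive cells. The Fap-positive library was lower within each plate, by a log2 fold change of -0.39 (SE 0.11, edgeR adjusted p = 0.891, limma value 0.06). *Myl9*, a myosin light chain, stood at 2391 and 1426 CPM against 1597 and 1051 CPM (-0.51, SE 0.12, adjusted p = 0.891, and -0.31 without the cells with an M score of at least 2). *Actg2* and *Cnn1*, encoding gamma smooth muscle actin and calponin, differed by -0.66 and -1.96, and *Tpm1*, *Tpm2*, *Myh11* and *Casq2* by -1.34 to -0.35. *Actg2* was at 0.15 with limma.

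Immediate early and stress genes, which are induced within minutes by many stimuli, were also mostly lower. Of 19 genes 12 were lower and 2 higher in both plates, against 25.5% and 26.2% of all genes, and 6 were lower and 0 higher at an unadjusted p under 0.05, against 2.62% and 2.77%. None passed an adjusted p of 0.05 in edgeR, while DESeq2 called *Btg2* and *Ier3* and limma *Ier3*, and the median was -0.24. *Btg2*, an antiproliferative factor, stood at 443 and 317 CPM in Fap-negative and at 230.0 and 152 CPM in Fap-positive cells (-1.004, SE 0.14, adjusted p = 0.397). *Ier3* stood at 185 and 204 CPM against 113 and 56.5 CPM (-1.28, SE 0.29, adjusted p = 0.891). *Atf3*, *Dusp1*, *Socs3* and *Fos* differed by -0.69, -0.40, -0.39 and -0.36, while *Jun* and *Jund* were at 0.01 and -0.06. The median was -0.01 with ERCC totals and -0.02 with limma (-0.25 and -0.17 relative to the median of all genes) and -0.34 in depth-matched cells.

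**Figure D3:**
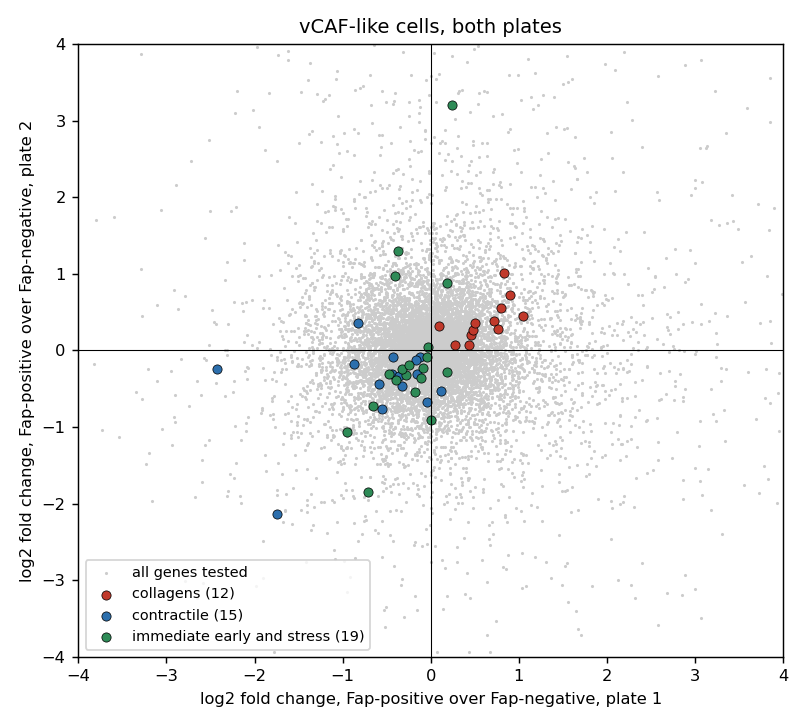
Log2 fold change of Fap-positive over Fap-negative vCAF-like cells in plate 1 (x axis) and plate 2 (y axis), 1 point for each gene tested, with *Fap* left out and 221 genes beyond 4 on either axis not shown. The 12 collagens lie in the upper right and 13 of 15 contractile genes in the lower left, amid a cloud of all genes around 0.

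Genes of mural identity held members in both directions. Of 22 genes outside the rule 8 were higher and 7 lower in both plates, against 26.2% and 25.5% of all genes, with a median of 0.06. At an unadjusted p under 0.05, 1 was higher and 2 were lower, against 2.77% and 2.62%, DESeq2 called *Ednrb*, and limma called *Ednrb* lower and *S1pr3* higher. *Pdgfrb*, the receptor that recruits pericytes, stood at 2743 and 2643 CPM in Fap-negative and at 2794 and 3043 CPM in Fap-positive cells (0.11, SE 0.11, edgeR adjusted p = 0.958). *Cspg4*, which encodes the NG2 antigen used in the sort, stood at 353 and 440.1 CPM against 352 and 475 CPM (0.05, SE 0.13), with a sign that turned under several settings. *Notch3*, the Notch receptor of mural cells, stood at 989 and 903 CPM against 717 and 808 CPM (-0.31, SE 0.13, adjusted p = 0.922). The members that differed most besides *Ednrb* were *Epas1*, which encodes HIF-2 alpha (-0.39, adjusted p = 0.891), and *S1pr3*, a sphingosine 1-phosphate receptor (0.33). Of 10 genes of the Notch pathway 7 were tested, with a median of -0.29 (-0.35 in plate 1 and 0.0014 in plate 2, -0.011 without the cells with an M score of at least 2 and 0.045 with limma), and 1, *Nrarp* (-0.64, adjusted p = 0.891), was lower at an unadjusted p under 0.05. The ligand gene *Jag1* was at -0.31 and was above 0 with limma. The 6 genes of the V score, which the rule used, differed by -0.32 (*Rgs5*) to 0.17 (*Kcnj8*). Of the M score genes *Serpinf1*, which encodes the antiangiogenic factor PEDF, stood at 34.7 and 81.9 CPM in Fap-negative and at 206 and 344 CPM in Fap-positive cells, and *Dcn*, *Lum*, *Mfap5*, *Olfml3* and *Smoc2* were at 79.3 CPM or less in each library. These values are part of the rule and were not tested.

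Of 8 genes of the *Fap* family and related prolyl peptidases, *Fap* apart, 5 were tested. At an unadjusted p under 0.05, 1 was higher and 0 lower, against 2.77% and 2.62% of all genes. The median was 0.11, but 0.0019 in depth-matched cells and -0.12 without the cells with an M score of at least 2. *Dpp8*, a cytosolic dipeptidyl peptidase, stood at 79.7 and 71.2 CPM in Fap-negative and at 127 and 100.3 CPM in Fap-positive cells (0.59, SE 0.20, adjusted p = 0.891, but 0.36 in depth-matched cells), and the prolyl endopeptidase gene *Prep* was at -0.37 (adjusted p = 0.929) and at 0.00 in depth-matched cells. *Dpp4*, the closest relative of *Fap*, was read in 0 and 2 of the Fap-positive and in 1 and 0 of the Fap-negative wells of plates 1 and 2.

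The likeness of other genes to *Fap* was described across single vCAF-like cells, using the same *Fap* reads that define the groups, so that it gives no separate support for the values above. Over cells thinned to 50000 reads (254 in plate 1 and 224 in plate 2), the 5 genes with the highest Spearman correlation, by the lower of the 2 plates, were *Col6a1* (0.22 and 0.24), *Fbn2* (0.22 and 0.22), *Col5a2* (0.30 and 0.21), *Ctsk* (0.22 and 0.21) and *Serpinf1* (0.24 and 0.21), the last of which belongs to the M score of the rule. *Fbn2* encodes a fibrillin of elastic microfibrils and *Ctsk* the protease cathepsin K. All these correlations are weak, the cells of a plate share 1 tumor, and no test was made. At the other end were *Olfr78* (-0.20 and -0.22), *Fabp4* (-0.18 and -0.18), *Apip* (-0.21 and -0.17), *Ackr3* (-0.22 and -0.17) and *Tpm2* (-0.16 and -0.20).

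The 15 and 23 wells with 1 to 4 *Fap* reads entered no test and did not keep to one side. Their *Col1a2* level was 2705 and 2818 CPM, between the groups in plate 1 and near the Fap-positive cells in plate 2. *Acta2*, at 5997 and 4930.2 CPM, and *Myl9*, at 2487 and 1453 CPM, were at or above the Fap-negative cells. *Cdh11*, at 3.26 and 17.03 CPM, and *Mmp2*, at 104 and 195 CPM, were closer to the Fap-negative cells. *Ednrb* stood at 173 and 84.2 CPM and *Crispld2* at 81.9 and 90.3 CPM. These summed libraries hold 2819447 and 4060967 reads.

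The same split was made in mCAF-like cells, to see whether the differences followed *Fap* in another class. Depth differed here too, and not alike in both plates. Fap-positive wells held a median of 262024 reads and 5525 genes against 276708 and 5387 in plate 1. In plate 2 the medians were 259125 reads and 5685 genes against 158360 and 4773. In mCAF-like cells matched on depth edgeR called 0 genes, and the values below are those of all cells. The 73 and 62 Fap-positive and 15 and 23 Fap-negative mCAF-like cells gave 0 of 11394 genes at an adjusted p under 0.05 in edgeR, 302 higher and 166 lower at an unadjusted p under 0.05 (2.65% and 1.46%), 28 higher and 26 lower in DESeq2 (0.246% and 0.228%), and 1 higher in limma (0.00878%). Collagens were not higher there, as 4 of 14 were above and 10 below 0, with a median of -0.16, 1 higher and 0 lower at an unadjusted p under 0.05. *Col1a2* differed by -0.28 and *Col1a1* by -0.27 (unadjusted p = 0.361 and 0.383), and *Col8a1* by 1.38 (unadjusted p = 0.0323). Of the contractile genes 8 were below and 5 above 0 in this class, with 7 lower and 0 higher at an unadjusted p under 0.05. Their median was -0.80 over 13 genes, and -0.52 over 11 genes without the wells with a V score of at least 2. *Acta2* differed by -0.87 (unadjusted p = 0.012) and *Myl9* by -0.80.

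The difference between the classes was tested as an interaction over all 8 libraries. It called 0 of 12189 genes at an adjusted p under 0.05, with 276 above and 407 below 0 at an unadjusted p under 0.05 (2.26% and 3.34%), and DESeq2 called 58 and 71 (0.476% and 0.582%). Among the collagens, 4 of 12 had the larger fold change in vCAF-like cells at an unadjusted p under 0.05 and 0 in mCAF-like cells, and none passed the adjusted threshold. For *Col1a2* the difference was 1.0997 (unadjusted p = 0.00657) and 0.88 when vCAF-like cells with an M score and mCAF-like cells with a V score of at least 2 were left out. For *Cdh11* it was 2.77 (unadjusted p = 3.84e-04, adjusted p = 0.397) and 1.63 without those cells (unadjusted p = 0.0859), and for *Tnc* 2.11 (unadjusted p = 6.59e-04), where the mCAF-like value was -1.42. For *Acta2* it was 0.49 (unadjusted p = 0.0699). Some mCAF-like wells held mural transcripts. A V score of at least 2 was found in 15 of 73 Fap-positive and 2 of 15 Fap-negative wells of plate 1, and in 11 of 62 and 5 of 23 wells of plate 2, so that the order of the shares was not the same in both plates. A V score of at least 4 was found in 7 of 73 against 0 of 15 wells of plate 1 and in 4 of 62 against 1 of 23 wells of plate 2. The 6 genes of the V score are part of the rule for the classes and were not tested. Their median log2 fold change in mCAF-like cells was 2.77, and *Rgs5* stood at 251 and 96.3 CPM in Fap-positive against 18.4 and 44.0 CPM in Fap-negative cells. Without the wells with a V score of at least 2, the median was 1.40 over the 3 genes left, and *Rgs5* was at 0.02. *Gja4* stood at 0.56 and 0.23 CPM in the Fap-negative libraries. *Notch3* differed by 2.17 between Fap-positive and Fap-negative mCAF-like cells (edgeR unadjusted p = 0.0051), and by 1.34 without the wells with a V score of at least 2.

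**Figure D4:**
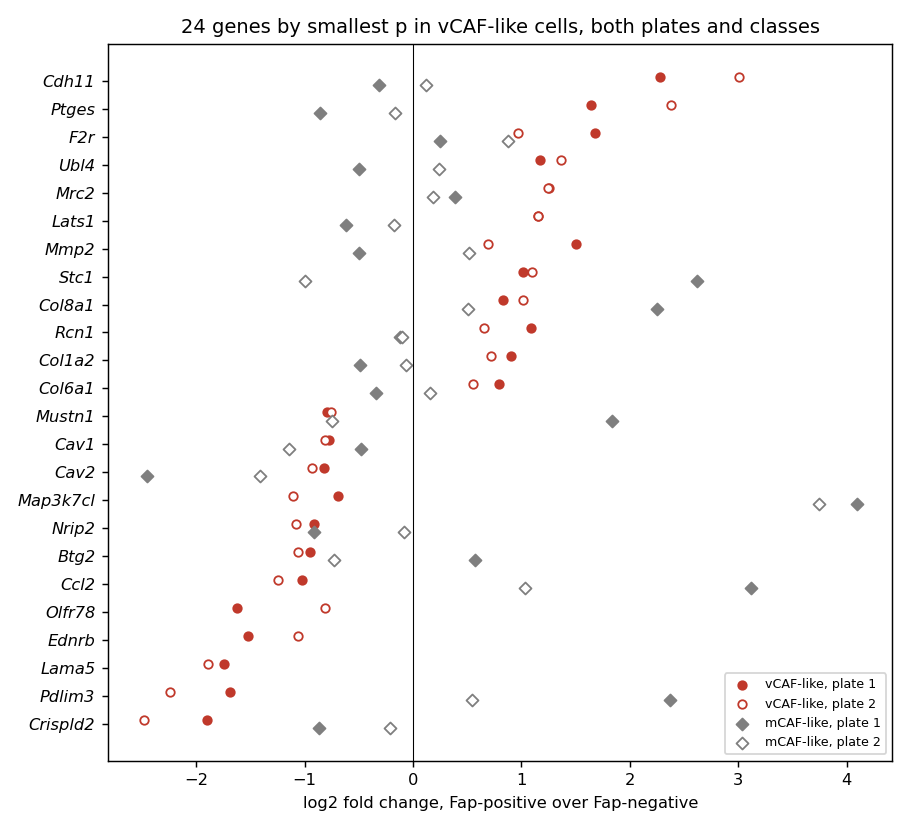
Log2 fold change of Fap-positive over Fap-negative cells for 24 genes, 12 above and 12 below 0, chosen by smallest p in vCAF-like cells. Circles are vCAF-like and diamonds mCAF-like cells, filled for plate 1 and open for plate 2. The 2 circles of each gene lie on the same side of 0 by the rule that chose them, while the diamonds of 7 of the 21 genes tested in mCAF-like cells lie on the opposite side in both plates and those of 7 on the same side.

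**Figure D5:**
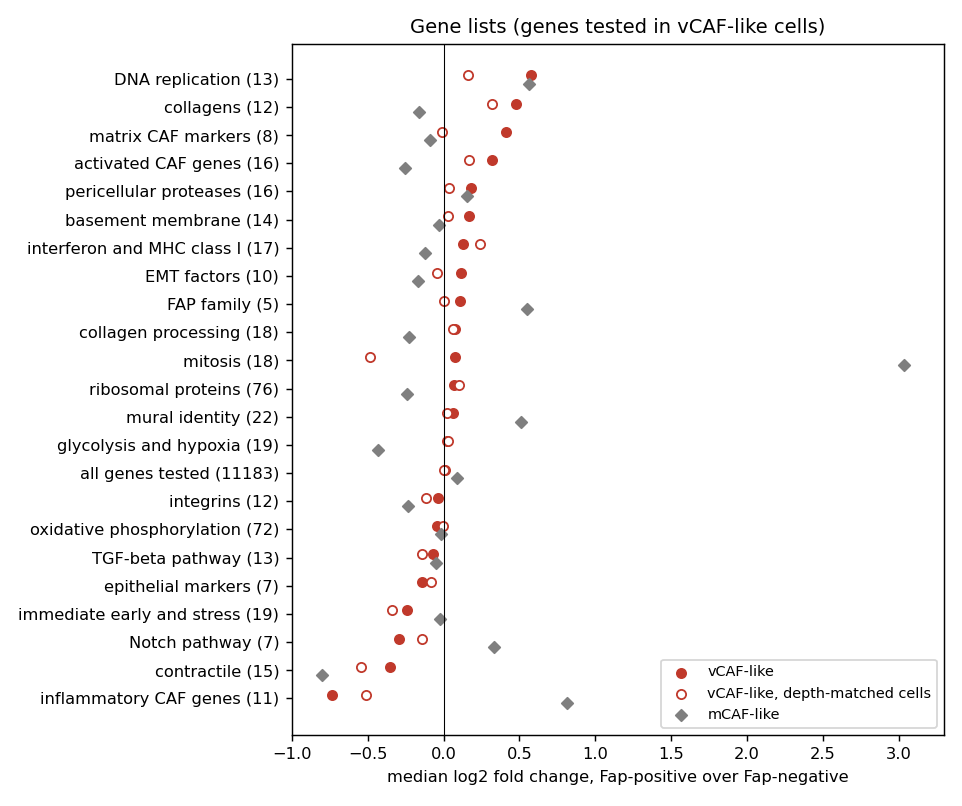
Median log2 fold change of Fap-positive over Fap-negative cells for gene lists with at least 5 genes tested, in all vCAF-like cells (filled circles), depth-matched vCAF-like cells (open circles) and mCAF-like cells (diamonds). Collagens lie at 0.48, 0.32 and -0.16 and contractile genes at -0.36, -0.54 and -0.80.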

How the data were processed

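The authors aligned single-end reads of 43 bases to mm10 with STAR v2.3.0 and deposited raw read counts per RefSeq gene and RPKM values made by rpkmforgenes, for 768 wells with 24490 endogenous genes and 92 ERCC spike-ins. Doublets had been gated out in the sort, and none were called here. The members, gene lists and tests were chosen with earlier results of these data known. The deposited counts were summed per plate and *Fap* group into 4 libraries. A gene was tested where its RPKM averaged 1 or more across the compared cells, with edgeR 4.0.16 in R 4.3.3 (TMM, quasi-likelihood, plate as block, Benjamini-Hochberg adjustment over all genes tested). *Fap* and the 12 score genes were not tested. The SE is the fold change divided by the square root of F. CPM values are TMM-scaled sums. The plate pairs the groups because its cells come from 1 mouse (the correlation of deviations within a plate was 0.18, and 0.044 in mCAF-like cells). Scripts were tested on simulated data.

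Named genes were to have an adjusted p under 0.05, 1 sign in both plates and reads in 20% or more of the higher group's cells, 12 each way. None passed, so the 12 of smallest p each way that met the other conditions are given as values. From each list the 2 members of smallest p were added, with fixed CAF and mural markers, the score genes and the 5 genes closest to *Fap* at each end, and further list members were chosen after their values were seen. Lists were described by counts and medians, with no set test. Alternatives were DESeq2 1.42.0, limma 3.58.1 on mean log2(RPKM + 1), no block, other scalings, filters, depths and *Fap* thresholds, and libraries left out.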

Additional observations from a re-analysis of the deposited data

Results flagged for a closer look

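Of the 24 named genes, 7 differed one way with *Fap* in both plates of vCAF-like cells and the opposite way in both plates of mCAF-like cells, and 7 the same way, among 21 genes tested in both classes. Among 5353 of the genes with 1 sign in both plates of vCAF-like cells the shares were 24.4% opposite and 26.5% the same. The difference between the classes (vCAF-like minus mCAF-like, log2) was 1.0997 for *Col1a2*, 1.56 for *Lats1*, 2.55 for *Ptges*, 1.00 for *Rcn1*, -3.21 for *Pdlim3*, -3.17 for *Ccl2* and -5.71 for *Map3k7cl*. These genes were chosen for this pattern, so the test of the difference is not independent of the choice. In edgeR's interaction test the unadjusted p was 0.00657, 0.00558, 0.00475, 0.0141, 0.0291, 0.00729 and 2.96e-04 in the same order, and none passed an adjusted p of 0.05 (lowest adjusted p of the 24 genes 0.360). Next, vCAF-like cells with an M score and mCAF-like cells with a V score of at least 2 were left out. The differences were then 0.88, 1.82, 2.96, 1.02, 0.01, 0.14 and -5.85 in the same order. The unadjusted p of edgeR was 0.991 for *Pdlim3* and 0.946 for *Ccl2*. For *Ccl2* the vCAF-like value went from -1.13 to 0.97 and the mCAF-like value from 2.07 to 0.92. *Pdlim3* went from -1.97 to -1.96 in vCAF-like cells and was under the filter on low levels in mCAF-like cells. The part of those wells was not tested otherwise. In mCAF-like cells *Map3k7cl* stood at 4.21 and 9.41 CPM in Fap-positive and at 0 and 0.46 CPM in Fap-negative libraries, and *Pdlim3* at 1.09 and 7.86 CPM against 0 and 5.29 CPM. The differences given for these 2 genes therefore depend on the prior count of the fit and are no measure of size.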

How the results depend on the processing

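The count of 0 called genes in vCAF-like cells was the same in edgeR without the replicate block (0 and 0, so that the plate pairing changed no call), with DESeq2 size factors, in depth-matched cells, with the other gene filters, from 1 *Fap* read, in deeper wells, without cycling cells and without cells with an M score of at least 2. It was 27 higher and 25 lower with DESeq2, 160 and 10 with limma on mean log2(RPKM + 1), 3 and 4 with limma in depth-matched cells (added after seeing the data), and in edgeR 3 and 1 with ERCC totals as library size, 1 and 2 at 50000 reads per cell and 1 and 1 from 20 *Fap* reads. Leaving out 1 library at a time gave 0 and 0 each time. In mCAF-like cells the counts were 28 and 26 with DESeq2, 9 and 11 at 50000 reads, 1 higher with limma, and 0 to 12 higher and 0 to 15 lower when 1 library was left out, with 12 and 15 without the Fap-negative library of plate 2. The class difference gave 58 and 71 genes with DESeq2. The cause of these differences was not tested. Of the 24 named genes 23 kept their direction under all 16 alternatives that keep both plates, the exception being *Ccl2*. These genes were chosen by small p and 1 sign in both plates, and the alternatives reuse the same wells. The count therefore gives no separate support. Of the 74 genes followed over these settings, which include the 24, 55 kept their direction wherever they were tested.

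Directions turned in the cases given here, among them *Acta2*, *S100a4* and *Loxl1*, which many wells express. With limma the turned values were *Ccl2* 0.12, *Acta2* 0.063, *S100a4* 0.12, *Actg2* 0.15, *Jag1* 0.045, *Ccl11* 0.26, *Uqcrfs1* 0.048, *Ndufs8* 0.067, *Esam* 0.16, *Lcn2* 0.13, *Fcer1g* 0.00065 and *Lpl* 0.19. With limma in depth-matched cells they were *Cspg4* -0.18, *Tnc* -0.0093, *Jag1* 0.10, *Ccl11* 0.60, *Ltbp1* 0.067, *Cxcl12* 0.010, *Lcn2* 0.075 and *Fcer1g* 0.030. In depth-matched and thinned cells they were *Cspg4* -0.15, *Prep* 0.13, *Loxl1* -0.065, *Jag1* 0.13, *Ccl11* 0.025 and *Trf* -1.43, in depth-matched cells *Cspg4* -0.013 and *Prep* 0.0019, and at 50000 reads *Cspg4* -0.10, *Trf* -1.33 and *Lpl* 0.17. Without cells with an M score of at least 2 they were *Ccl2* 0.97 and *Loxl1* -0.40, with ERCC totals *Esam* 0.077 and *Lpl* 0.22, without cycling cells *Lcn2* 0.0055 and *Lpl* 0.072, with no filter *Lpl* 0.0017, and without the replicate block *Trf* -1.05 and *Lpl* 0.0092. When 1 library was left out at a time, with no block, *Cspg4* ran from -0.17 (without the Fap-positive library of plate 2) to 0.26, with -0.090 without the Fap-negative library of plate 1. *Lamb2* ran from -1.02 to 0.015, *Trf* from -3.03 to 4.23 with -2.03 and -0.25 between, *Lpl* from -0.29 to 0.26 with 0.18 between, *Krt18* from -2.78 to 0.58, *Lcn2* from -2.84 to 1.81, *Fcer1g* from -5.54 to 7.37 and *Irf7* from -0.13 to 2.69.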

Other observations

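Genes of glycolysis and hypoxia, which were not part of the account so far, lay around 0 (median 0.02 on the log2 scale, Fap-positive over Fap-negative). Of 21 genes 19 were tested, 11 above and 8 below 0, with 4 lower and 0 higher at an unadjusted p under 0.05, against 2.62% and 2.77% of all genes. Those with the smallest p were *Vegfa*, at 3.60 and 17.3 CPM in Fap-negative and 0.42 and 2.05 CPM in Fap-positive cells, and *Ndrg1*, at 19.1 and 224 CPM against 13.1 and 21.4 CPM. A single well held 86.0% of the *Ndrg1* reads of the Fap-negative library of plate 2. Inflammatory CAF genes had a median of -0.74 over 11 genes (0.36 in plate 1 and -1.25 in plate 2, 0.035 with limma and -0.0061 with limma in depth-matched cells), with *Ccl2* and *Cxcl12* (-1.10) lowest in p. Markers of matrix CAFs outside the rule had a median of 0.41 over 8 genes, but -0.01 in depth-matched cells and -0.44 without the cells with an M score of at least 2 (1 of 6 genes above 0), led by *Ccl11* (-0.65) and *Cd34* (4.48, at 3.65 CPM or less in each library). Genes of the TGF-beta pathway had a median of -0.07 (*Smad3* 4.35, with reads of few wells, and *Ltbp1* -0.96), factors of the epithelial-mesenchymal transition 0.11 (*Prrx2* 2.90, at 2.54 CPM or less in each library, and *Zeb2* -0.23) and integrins -0.04 (*Itga11* 2.95, at 15.6 CPM or less and 0.19 with limma, and *Itga6* 0.72).

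The mitosis list had a median of 0.07, but 1.70 in plate 1 and -1.46 in plate 2, led by *Aurkb* (1.29) and *Mki67* (0.71), and none of its 18 genes had an unadjusted p under 0.05. Genes of DNA replication had a median of 0.58, with *Tk1* (1.29) and *Tyms* (0.94) lowest in p, and 0.16 in depth-matched cells. Interferon and MHC class I genes had a median of 0.13 (*Irf7* 1.27, *Tap1* 0.59), ribosomal proteins 0.07 (*Rpl21* and *Rpl30*, whose near-identical copies make their counts uncertain, at 10.5 CPM or less) and oxidative phosphorylation -0.04 (*Uqcrfs1* -0.38, *Ndufs8* -0.32). Few markers of other cell types passed the filter. The endothelial list had *Vwf* at 1.68 and *Esam* at -0.15, the epithelial list *Krt18* at -1.22 and *Lcn2* at -0.57, the immune list *Lyz2* at 3.53 and *Fcer1g* at -1.39 with 12.7 CPM or less in each library, the list of developmental CAFs *Igfbp5* at -1.63 and *Trf* at 0.31, and the adipocyte list *Fabp4* at -0.68 and *Lpl* at -0.01. *Fabp4* stood at 543 and 452 CPM in Fap-negative and at 297 and 319.8 CPM in Fap-positive cells, a difference that DESeq2 (adjusted p = 0.0185) and limma (0.00296) called and edgeR did not (0.891). For every gene in these 2 paragraphs the edgeR adjusted p was 0.475 or more.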
